A study of Mus musculus with 11 samples.

Results

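The 3 fresh single-cell libraries of inflamed mouse colon mucosa, taken on days 7, 11 and 18 after the first exposure to dextran sodium sulfate (DSS), are described here type by type. The members are the cells that the authors' cell table places in batch C on those days, kept where an annotated type held at least 20 cells in each of the 3 libraries. That rule kept 24791 of the 25256 batch C cells, in 19 of 28 annotated types, out of 55603 cells in the 11 libraries of the series used here. By library, 7495 of 7568 cells were kept on day 7, 8874 of 8953 on day 11 and 8422 of 8735 on day 18.

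All 3 groups were wild-type mice, about 2 months old, that drank 3% DSS for 6 days and were then dissected on day 7, 11 or 18. Each library pooled mucosa from 3 mice by the cell table, where the labels give pools of 3 to 8 mice for the series. The muscle layers were stripped, the mucosa was digested with Liberase, red cells were lysed, and cells binding annexin V, a marker of dying cells, were removed on a magnet. These suspensions went straight onto the 10x Genomics instrument, whereas those of batch A were frozen first. Batch A held an uninjured library, libraries of DSS days 6, 9, 12, 16, 19 and 23, and a library of older Il10-/- mice with spontaneous colitis. With 1 library a day, a difference between days could not be told apart from a difference between libraries, and no test was run. Intervals given below are 95% intervals for counting error only.

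DSS damages the surface epithelium of the colon, and the wound draws in neutrophils and monocytes before crypts regrow from surviving stem and progenitor cells. Fibroblasts beneath the epithelium are known to supply both inflammatory signals, such as the cytokines IL-6 and IL-11, and the Wnt, R-spondin and BMP signals that set stem cell behaviour. Day 7 of such a course falls just after DSS is withdrawn, day 11 in the repair phase and day 18 later in recovery.

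The libraries held 79011976, 87012379 and 80185992 UMI counts on days 7, 11 and 18, an order kept for every set of values below unless another is named. A UMI count stands for 1 captured RNA molecule. Median counts per cell were 7809.5, 5222 and 4579, and the median mitochondrial share was 4.29%, 3.1% and 8.85%. Pairs of libraries shared 15 to 21 cell barcodes. Xist stood at 0.0506 to 0.0919 CPM (a gene's counts per 1000000 counts of the cells summed) and the Y-linked genes Ddx3y, Eif2s3y, Uty and Kdm5d were present in each library, as in male mice. Clock genes differed between the libraries: Dbp stood at 3.99, 10.0 and 5.55 CPM and Arntl at 22.0, 12.0 and 28.8 CPM over all cells. The sources used here do not give the hour of dissection, and its part in the gene patterns was not tested.

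Type names were checked against marker lists by comparing each marker with the other batch C cells. Neutrophils, T cells and goblet cells had 8 of 8 markers of their class more than 2-fold above other cells on all 3 days, macrophages 8 of 9, and the Adamdec1/Bmp4 and the Pi16/Pcolce2 fibroblasts 7 of 8 each. Macrophages also passed for 8 of 8 dendritic cell markers, with a sum of 713, 356 and 608 CPM against 17.3, 28.8 and 21.2 in other cells, so dendritic cells within the type cannot be told apart from macrophages here. Car4/Ly6g colonocytes passed for 8 of 12 columnar epithelial markers and Crypt-2 cells for 5 of 12. Crypt-1 cells and Car4 colonocytes passed for 0 of 12, though their summed epithelial markers were 17666, 14527 and 13833 CPM and 7577, 8947 and 9677 CPM. The same sum in Pi16/Pcolce2 fibroblasts was 328, 928 and 1268 CPM. Car4 colonocytes were also the type with 51.9%, 54.9% and 50.5% median mitochondrial counts. Only 22 Crypt-1 cells came from day 7, with a median of 64351.5 counts a cell.

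The largest change in percentage points was in neutrophils, the granulocytes that enter inflamed mucosa first. They made up 19.9% of cells on day 7 (95% Clopper-Pearson interval 19.0% to 20.8%), 46.8% on day 11 (45.8% to 47.9%) and 17.4% on day 18 (16.6% to 18.2%). The day 11 interval lay far above both others. B cells were also most frequent on day 11, at 2.17%, 8.04% and 5.43%, and T cells stayed at 5.07%, 5.12% and 5.003%, with intervals that overlapped. Macrophages went down step by step, from 7.49% (6.91% to 8.11%) to 5.46% and 1.77% (1.51% to 2.07%).

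Stromal cells were most frequent on day 7. Adamdec1/Bmp4 fibroblasts made up 14.1%, 3.47% and 5.58% of cells and Pi16/Pcolce2 fibroblasts 12.1%, 3.15% and 5.12%. Blood endothelial cells with no subtype stood at 4.70%, 1.80% and 1.65%, and lymphatic cells at 4.19%, 1.33% and 1.11%. The day 7 intervals of all 4 types lay above those of both later days. Crypt cells went the other way: Crypt-2 cells rose from 2.41% (2.07% to 2.78%) to 4.73% (4.29% to 5.19%) and 7.66% (7.11% to 8.24%), and Crypt-1 cells from 0.291% (0.182% to 0.440%) to 4.92% and 4.63%. Goblet cells, the mucus makers, were at 1.94%, 1.99% and 9.20%. Both colonocyte types dipped on day 11, Car4/Ly6g colonocytes at 11.2%, 4.67% and 15.1% and Car4 colonocytes at 6.92%, 4.10% and 13.3%.

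Of the 19 types, 10 had their largest share on day 7, 5 on day 11 and 4 on day 18. Shares in a library sum to 100%, so a larger share of neutrophils lowers all others. With neutrophils taken out of the denominator, 8, 6 and 4 of the other 18 types were largest on days 7, 11 and 18. With cells of at least 1000 counts and at most 20% mitochondrial counts the same 19 types split 10, 3 and 6.

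**Figure D1:**
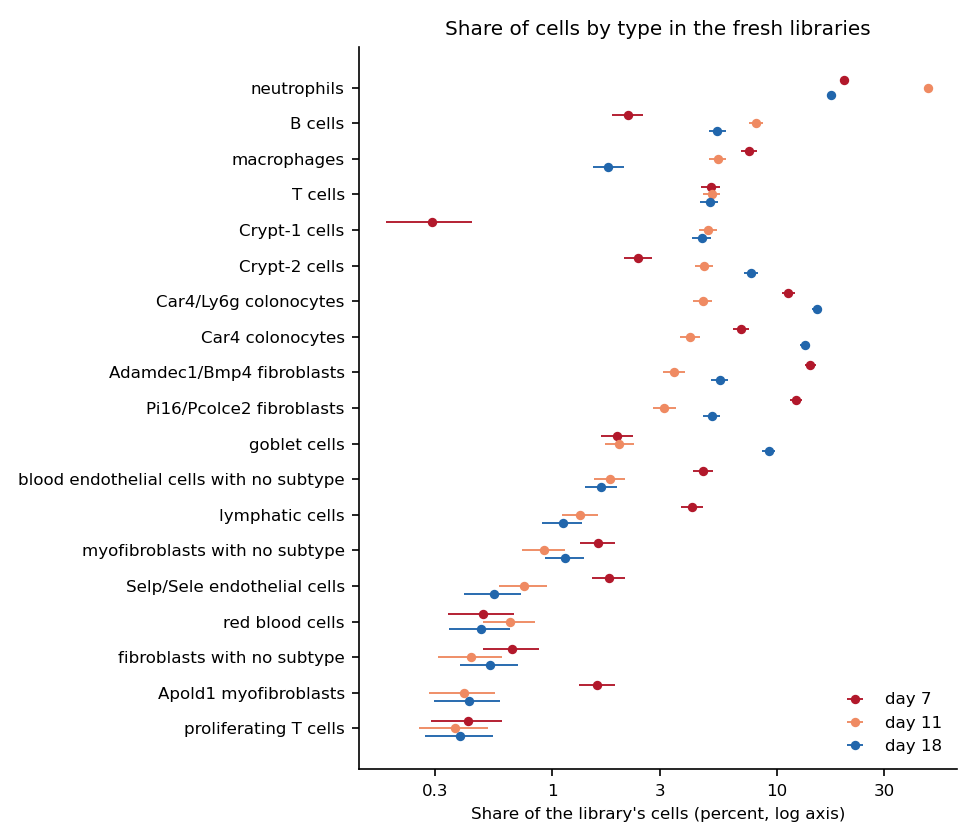
Share of cells by annotated type in the fresh libraries of days 7, 11 and 18, as a percentage of all cells of the library on a log axis, with 95% exact binomial intervals for counting error. Neutrophils stand at 46.8% on day 11 against 19.9% and 17.4%, and Crypt-1 cells at 0.291% on day 7 against 4.92% and 4.63%.

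Gene patterns were read from counts summed per type and library and given as CPM of that sum. A gene was tested where its highest library held at least 50 counts. It peaked where day 11 was at least 2-fold above both other days, dipped where day 11 was at most 1/2 of both, and fell or rose in order where each step was at least 1.5-fold, with counts under 3 set to 3. Among 95845 tested pairs of a gene and a type, 1485 peaked (1.55%), 772 dipped (0.805%), 976 fell in order (1.02%) and 1231 rose in order (1.28%). Rising pairs were 55.8% of all rising and falling pairs on CPM, and 38.6% with edgeR's TMM scaling. The split between the orders thus turned with the scaling.

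The peaks held by the most types were largely of myeloid transcripts, seen outside neutrophils. S100a9, a calcium-binding protein that is among the most abundant neutrophil RNAs, peaked in 12 of the 19 types where it was tested. Acod1, which makes itaconate in activated myeloid cells, peaked in 11 of 17, the neutrophil gene G0s2 in 11 of 16, and the chemokines Ccl3, Ccl4, Cxcl2 and Cxcl3 and the cytokine Il1b in 10 types each. Neutrophils were not among the types with a peak of S100a9, where it stood at 130663, 120696 and 96609 CPM. The summed level of 8 neutrophil markers in goblet cells was 14486, 34863 and 6315 CPM, in T cells 6049, 18419 and 1653 CPM and in Pi16/Pcolce2 fibroblasts 2319, 4973 and 709 CPM. Of the 18 types other than neutrophils, this sum was highest on day 11 in 13 and on day 7 in 5, and it was lowest on day 18 in 17. The 5 were blood endothelial cells with no subtype, at 40095, 13896 and 1393 CPM, Crypt-2 cells, lymphatic cells, Adamdec1/Bmp4 fibroblasts and Apold1 myofibroblasts. The part of free neutrophil RNA or doublets in these peaks was not tested.

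Falls and rises were shared between types too. Igkc, an immunoglobulin light chain, rose in 14 of 19 types: in T cells it stood at 12.4, 43.0 and 656 CPM, in macrophages at 14.2, 34.6 and 460 CPM and in neutrophils at 16.6, 27.0 and 870.5 CPM. Plasma cells, which secrete antibody, numbered 5, 8 and 244 in the same libraries. Pigr, the epithelial antibody transporter, rose in 10 of 15 types. The monocyte chemokine Ccl2 fell in order in 10 of 14 types and the matrix protein gene Mgp in 8 of 15, and Mgp in Pi16/Pcolce2 fibroblasts themselves stood at 7273, 3613 and 2176 CPM.

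Genes were therefore also counted where the mean CPM in the type was at least that in the other batch C cells, and the genes named below for the size of their change in a type meet that condition. Genes named as members of a list need not. Of 54089 such pairs, 314 peaked (0.581%), 432 dipped (0.799%), 352 fell (0.651%) and 528 rose (0.976%). Peaks were more than dips over all pairs and fewer than dips over these.

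**Figure D2:**
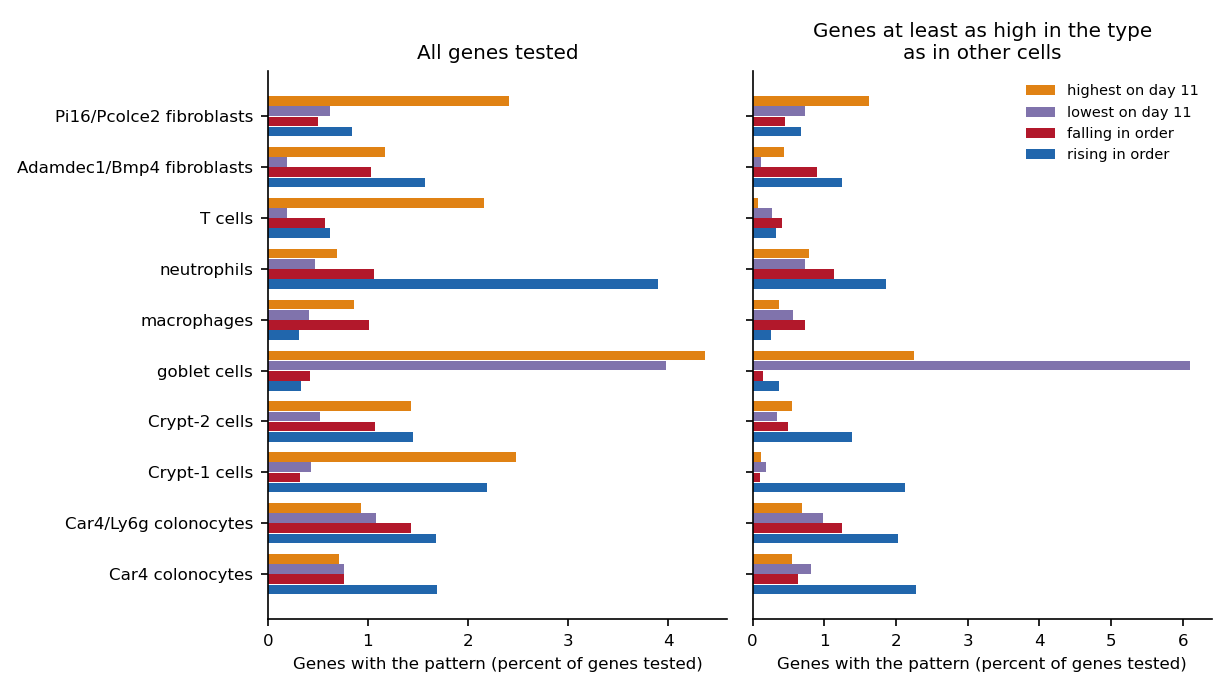
Percentage of tested genes with each pattern in the 10 types with the deepest smallest library, for all genes tested (left) and for genes at least as high in the type as in other cells (right). Bars are 4 patterns per type, and goblet cells lead the left panel with 4.37% of genes highest and 3.98% lowest on day 11.

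The Adamdec1/Bmp4 fibroblasts, which lie close to the epithelium and express BMP ligands, had 8 of 18 inflammatory fibroblast genes falling in order from day 7 to day 18 and 13 of 16 proliferation genes peaking. Of 9434 genes tested, 97 fell in order (1.03%), 148 rose (1.57%), 110 peaked (1.17%) and 18 dipped (0.191%). Mmp3, a matrix metalloproteinase, stood at 1086 CPM on day 7, 217 on day 11 and 35.4 on day 18, a 30.7-fold difference between day 7 and day 18 (26.4 to 35.7). Saa3, an acute phase protein, stood at 4648, 2485 and 273 CPM, 17.0-fold (16.1 to 18.0). Il11, a cytokine of injured stroma, stood at 1380, 642 and 132 CPM, 10.49-fold (9.71 to 11.4). The hyaluronan-degrading Cemip stood at 330, 120 and 32.2 CPM, 10.2-fold (8.75 to 12.1). All 4 were also highest on day 6 and lowest on days 16 and 19 in the frozen libraries, where Mmp3 read 4356, 381 and 88.6 CPM and Il11 1968, 843 and 48.3 CPM.

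Other members of the inflammatory fibroblast list moved with them. Of its 18 genes tested, 8 fell in order, 1 dipped and 0 rose or peaked, and 15 were highest on day 7, as were 27.6% of all genes tested. Beside the 4 above, the fallers were Mmp10, Cxcl1, Ccl2 and Ccl7, of which Ccl2 stood at 1478, 405 and 171 CPM and Cxcl1 at 1131, 638 and 352 CPM. The chemokine Cxcl5 held its level until day 11, at 786, 719 and 97.1 CPM, and Mmp13 was already low then, at 782, 63.7 and 91.5 CPM. The list's median log2 difference was -1.09 from day 7 to day 11 and -0.94 from day 11 to day 18, beside 0.07 and 0.04 over all genes tested. A list of feedback genes of NF-kB, the transcription factor behind many of these genes, went the same way. Nfkbia, Tnfaip3, Tnip1 and Birc3 fell, 4 of 12 tested, with Tnfaip3 at 300, 174 and 62.7 CPM. The list also holds NF-kB subunit genes such as Nfkb1 and Relb.

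Cell cycle genes had their peak in the same fibroblasts. Of 16 proliferation genes, 13 peaked and all 16 were highest on day 11 (29.6% of all genes tested were), with a median log2 difference of 2.63 from day 7 to 11 and -1.88 from day 11 to 18. Top2a, which untangles DNA in dividing cells, stood at 14.1, 118 and 18.5 CPM, Cdk1, the mitotic kinase, at 5.19, 55.0 and 10.7 CPM, and Mki67 at 5.04, 51.4 and 16.3 CPM. Top2a was found in 34, 53 and 33 cells, of 1065, 311 and 487. In the frozen libraries Top2a read 3.56, 104 and 15.4 CPM and Cdk1 3.56, 50.01 and 5.13 CPM, so the middle days were again the highest. The chaperone gene Clu peaked at 185 CPM against 5.73 and 14.9, the mitotic gene Depdc1a at 13.3 against 0.534 and 1.79, and the Wnt antagonist gene Dkk2 at 13.96 against 1.99 and 2.39. Lrrc15 met the rule too, but 94.2% of its day 11 counts came from 1 cell.

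The largest rises in these fibroblasts were in Csf2, Slc6a11, Fgf9 and C1qtnf3. The growth factor gene Fgf9 stood at 4.12, 12.1 and 54.1 CPM, 13.1-fold higher on day 18 than on day 7 (9.77 to 17.9). C1qtnf3 stood at 10.1, 46.9 and 122 CPM, 12.1-fold (10.1 to 14.8), and the GABA transporter gene Slc6a11 at 0.763, 6.56 and 10.7 CPM. Csf2 met the rule with 93.1% of its day 18 counts in 1 cell. Frozen levels of C1qtnf3 were 17.8, 26.4 and 188 CPM, in the same order. Fn1, which encodes fibronectin, was the 1 of 13 fibrillar matrix genes that rose in order, at 959, 1798 and 2762 CPM, while 10 of the 13 were highest on day 11, among them Col1a1 at 1624, 4452 and 3229 CPM. Summed smooth muscle or pericyte markers in the same cells were 136, 1126 and 696 CPM, and their part was not tested. Mt3, Peli3 and Pramef8 dipped, with Mt3, a metallothionein, at 67.2, 9.52 and 34.2 CPM.

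The Pi16/Pcolce2 fibroblasts, which carry markers of adventitial fibroblasts, had more genes that peaked than fell or rose in order. Of 8478 genes tested, 204 peaked (2.41%), 53 dipped (0.625%), 43 fell (0.507%) and 71 rose (0.837%). Col11a1, a fibrillar collagen of wound and cartilage matrix, stood at 1.21, 39.5 and 0.777 CPM, 32.5-fold higher on day 11 than on day 7 (18.1 to 64.2). Pdgfrl stood at 2.02, 57.1 and 0.259 CPM and the collagen-binding proteoglycan gene Fmod at 0.708, 20.9 and 0.259 CPM. H19, an imprinted non-coding RNA, had 0, 191 and 2 counts, so day 11 was at least 148-fold above day 7 against a floor of 3 counts, though 50.8% of the counts came from 1 cell. Frozen libraries did not show these peaks at that size: Col11a1 read 6.74, 2.85 and 0.745 CPM there, and Fmod 0, 4.48 and 2.23.

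In these cells 2 of 13 fibrillar matrix genes and 4 of 12 crypt niche genes peaked. Tnc, the wound matrix protein tenascin C, stood at 16.4, 200 and 9.32 CPM and Col12a1 at 39.6, 350 and 34.2 CPM, the 2 of 13 fibrillar matrix genes that peaked. Col1a1 stood at 4175, 12584 and 7483 CPM, and 10 of 13 were highest on day 11, beside 28.5% of all genes tested. Summed smooth muscle or pericyte markers in these cells were 44.3, 568 and 50.2 CPM and summed red blood cell markers 16.7, 1133 and 14 CPM, so both were also highest on day 11, and their part in the peaks was not tested. Of 12 crypt niche genes tested, 4 peaked. These were the BMP antagonist gene Grem1 at 55.1, 462 and 103 CPM, the R-spondin gene Rspo3 at 26.7, 67.5 and 29.5, Wnt4 at 7.49, 26.8 and 1.30, and the ErbB ligand gene Nrg1 at 9.82, 32.7 and 1.30. Wnt2 rose in order, at 9.11, 17.2 and 66.8 CPM. The frozen libraries gave Tnc in another order, at 596, 366 and 167 CPM, and Grem1 at 531, 642 and 475 CPM.

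The inflammatory fibroblast list behaved differently here than in the Adamdec1/Bmp4 fibroblasts. Of 16 genes tested, 0 fell in order and 3 peaked, namely Il11 at 61.2, 159 and 13.98 CPM, Cxcl5 at 242, 732 and 139 CPM and Timp1 at 422, 1093 and 270 CPM. All 3 read highest on day 6 in the frozen libraries instead, where Il11 was at 214, 50.1 and 21.6 CPM. The difference between the 2 fibroblast types was not tested. Interferon-stimulated genes were highest on day 7 in 16 of 18 tested, beside 23.3% of all genes tested.

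Eln and Gli1 rose in the Pi16/Pcolce2 fibroblasts. Eln, which encodes elastin, stood at 318, 1268 and 2619 CPM, 8.23-fold higher on day 18 than on day 7 (7.90 to 8.56), and in the frozen libraries at 534, 1086 and 1074 CPM. Gli1, a target of Hedgehog signalling, stood at 1.01, 6.58 and 19.9 CPM and at 0.842, 6.10 and 13.4 in the frozen libraries. Fgf1 rose from 1.42 to 8.94 and 18.1 CPM, and all day 18 counts of Msln came from 1 cell. Among the fallers, the B cell chemokine gene Cxcl13 stood at 589, 197 and 102 CPM, and Acat3, Adhfe1 and Zdbf2 fell too. Cxcl13 was highest late in the frozen cells, at 69.1, 60.2 and 162 CPM. The largest dips were in Krtdap, Galnt15 and Sema3e, of which Galnt15 stood at 152, 13.2 and 60.3 CPM.

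**Figure D3:**
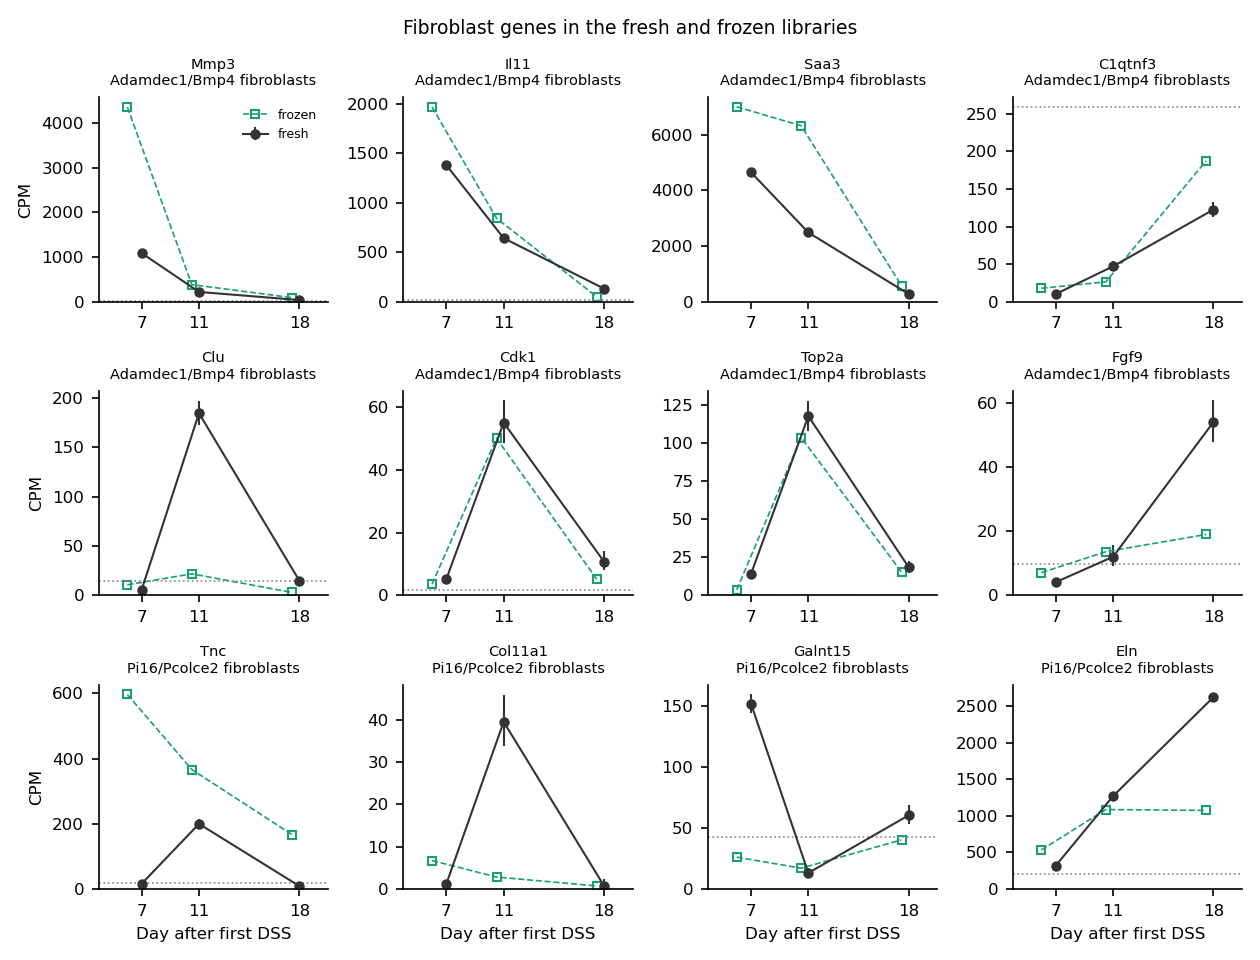
CPM of 12 genes in Adamdec1/Bmp4 (8 panels) and Pi16/Pcolce2 fibroblasts (4 panels) by day after first DSS. Black points are the fresh libraries with 95% Poisson intervals for counting error, green squares the frozen libraries of day 6, days 9 and 12 summed and days 16 and 19 summed, and the grey dotted line the uninjured frozen library. Mmp3 goes down in both sets, while Tnc peaks at 200 CPM in the fresh set and goes down in the frozen set.

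Crypt-2 cells, a crypt epithelial type, had Ly6c1 and the antimicrobial genes Lcn2 and Duox2 among the genes that fell. Of 9617 genes tested, 138 peaked (1.43%), 50 dipped (0.52%), 103 fell (1.07%) and 139 rose (1.45%). Ly6c1, a surface protein of the Ly6 family, stood at 964, 122 and 41.7 CPM, 23.1-fold higher on day 7 than on day 18 (21.2 to 25.3). The bile acid transporter gene Slc10a2 stood at 36.8, 11.9 and 1.98 CPM, and Il5ra and Syt12 fell too. In the frozen libraries Ly6c1 was highest on the middle days, at 157, 268 and 59.7 CPM. Of 13 antimicrobial genes tested, 2 fell, 2 peaked and 8 were highest on day 7, beside 26.9% of all genes tested. Of 11 surface colonocyte genes, 1 fell in order, Clca4a, and 10 were highest on day 7. Lcn2, the iron-trapping lipocalin, fell at 298, 182 and 17.3 CPM, and Duox2, an epithelial oxidase, at 172, 108 and 61.9 CPM. Saa1 was 7964, 734 and 614 CPM. Lcn2 is also a neutrophil gene, and the summed neutrophil markers in these cells were 8973, 8871 and 1704 CPM.

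Among the genes known from regenerating epithelium, Ly6a fell in order in both crypt types. Ly6a, a marker of the fetal-like repair state, fell in order in Crypt-2 cells at 4416, 1397 and 730 CPM, in Crypt-1 cells at 1630, 491 and 219 CPM and in Car4/Ly6g colonocytes at 4361, 2839 and 1479 CPM. It was the 1 of 10 list genes tested that fell in each crypt type. In Crypt-2 cells 2 others peaked, Il33 and Msln, and 5 of the 10 were highest on day 7 and 5 on day 11. Clu, which marks revival stem cells in this list, stood in Crypt-2 cells at 3.57, 42.6 and 38.8 CPM, with 42.6% of the day 11 counts in 1 cell, and rose in Car4/Ly6g colonocytes at 3.21, 7.18 and 38.1 CPM.

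Risers of Crypt-2 cells were led by Edn2, the peptide endothelin 2, at 3.08, 29.3 and 62.1 CPM, 20.1-fold higher on day 18 than on day 7 (12.8 to 33.6). Hunk and Fndc5 stood at 0.810, 3.81 and 9.15 CPM and at 0.810, 3.16 and 9.45 CPM. Sptssb met the rule from 1 count on day 7, 16.0-fold with that count set to 3. Its interval from the counts themselves was 8.42 to 1913. In the frozen libraries Sptssb went the other way, at 229, 153 and 120 CPM. The dips included St8sia5, a sialyltransferase, at 49.1, 0.892 and 3.20 CPM and the carboxylesterase gene Ces2a at 57.2, 16.5 and 55.1 CPM, with Bche at 3.89, 1.38 and 3.97. The 4 peaks named here for their size rested on few cells, which does not describe the other peaks of the type. For Sprr2d and Sprr2f, 97.0% of day 11 counts came from 1 cell, for Arg1 76.4% and for Spink6 65.6%.

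In Crypt-1 cells 3 stem cell genes and 5 goblet cell genes rose in order, and the goblet genes did so in other types as well. Of 8950 genes tested, 222 peaked (2.48%), 39 dipped (0.436%), 29 fell (0.324%) and 196 rose (2.19%), all read against 22 cells on day 7. Most of the peaks were in genes lower in Crypt-1 cells than in other cells. Of 5907 genes at least as high there, 7 peaked (0.119%), 11 dipped (0.186%), 6 fell (0.102%) and 125 rose (2.12%). Of 9 goblet genes tested, 5 rose and all 9 were highest on day 18, beside 51.8% of all genes tested. Muc2, the main gel-forming mucin, stood at 15.3, 136 and 250 CPM, Spink4 at 25.7, 358 and 1256 CPM, Tff3 at 16.0, 109 and 261 CPM, and Fcgbp and Clca1 rose too. The summed goblet markers of Crypt-1 cells, 283, 1873 and 3425 CPM, stayed below those of the other cells, 4387, 3228 and 13625 CPM, on days 7, 11 and 18. That sum was highest on day 18 in 16 of the 18 types other than goblet cells, with T cells at 247, 760 and 1204 CPM, and Muc2 and Tff3 rose in order in 5 types each. Goblet cells went from 1.94% to 9.20% of the libraries, and the part of free goblet cell RNA was not tested. The stem and Wnt target genes Lgr5, Ascl2 and Znrf3 rose, 3 of 10 tested, with Ascl2 at 4.86, 11.6 and 23.8 CPM and Lgr5 at 0.695 from 1 count, 6.87 and 14.3 CPM. None of the 16 proliferation genes met a pattern, and their summed level was 3381, 3241 and 4149 CPM.

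Ttr, the thyroid hormone carrier transthyretin, was the largest riser of Crypt-1 cells, at 1.39, 126 and 306 CPM from 2, 2422 and 4402 counts. Ttr was 147-fold higher on day 18 with the day 7 count set to 3. The interval from the counts themselves was 60.9 to 1817. The glutathione transferase gene Gsta3 stood at 2.08, 85.3 and 132 CPM, Nxpe2 at 2.08, 32.5 and 95.6 and the membrane mucin gene Muc4 at 0.695, 21.6 and 42.6. In the frozen libraries Ttr read 27.2 CPM on days 9 and 12 and 111 on days 16 and 19. The keratin genes Krt13, Krt14 and Krt90 peaked. Krt13 had 0, 543 and 89 counts, at least 13.6-fold above day 7, Krt14 stood at 4.17, 32.7 and 13.96 CPM and Krt90 at 0.695, 16.0 and 1.53 CPM, with Tead4 at 2.08, 4.94 and 1.18. The fallers Tac1, Mgat4c, Ccl20 and Slc10a2 had 21.6%, 46.0%, 38.2% and 69.7% of their day 7 counts in 1 cell. Hao2 and Slc6a4 dipped, with Hao2 at 111, 19.6 and 68.1 CPM. Sst met the rule with 0, 0 and 119 counts, where the floor of 3 counts and the smaller day 7 total set its direction. Sst is thus no dip, though the count of dips above includes it.

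Car4/Ly6g colonocytes, surface cells named for carbonic anhydrase 4, had the calcium uptake genes Trpv6 and S100g among those that rose. Of 8451 genes tested, 79 peaked (0.935%), 91 dipped (1.08%), 121 fell (1.43%) and 142 rose (1.68%). Trpv6, the apical calcium channel, stood at 0.857, 17.3 and 61.0 CPM, 71.2-fold higher on day 18 than on day 7 (40.5 to 138). S100g, the calcium-binding calbindin that carries calcium across the cell, stood at 4.36, 15.4 and 288 CPM, 66.1-fold (51.3 to 86.6). Both rose again in Car4 colonocytes, Trpv6 with 0, 9 and 124 counts, at least 22.5-fold, and S100g at 1.49, 7.83 and 79.3 CPM. S100g rose in order in 6 of 6 types tested, with Crypt-1 cells, Crypt-2 cells, goblet cells and neutrophils among them. The part of free epithelial RNA in that shared rise was not tested. In the frozen Car4/Ly6g cells Trpv6 read 0, 10.9 and 20.7 CPM, and S100g 15.3, 108 and 109 CPM. The manganese transporter gene Slc30a10 and Mettl7a2 rose as well, at 0.214, 0.875 and 7.06 and at 0.429, 6.48 and 17.9 CPM.

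Apoc2 and Fabp6 were among the 79 genes that peaked in these colonocytes. Apoc2, an apolipoprotein that activates lipoprotein lipase, stood at 20.1, 432 and 80.6 CPM, 21.5-fold above day 7 (19.0 to 24.4) and 5.37-fold above day 18 (4.98 to 5.78). It peaked also in Car4 colonocytes at 3.48, 111 and 31.7 CPM. The frozen levels of Apoc2 were far lower, at 0, 5.82 and 0.965 CPM in Car4/Ly6g cells. Fabp6, a bile acid binding protein, peaked at 61.4 CPM on day 11, 9.45-fold above day 7 (7.49 to 12.0) and 7.96-fold above day 18 (6.32 to 10.1), and Dnase1l2 and Bdh2 peaked too. Ccl20, which attracts lymphocytes and dendritic cells through CCR6, dipped at 69.6, 7.70 and 31.5 CPM, and the frozen cells gave 9.55, 18.9 and 32.3. The sodium-proton exchanger gene Slc9a3 dipped at 16.6, 4.73 and 17.1 CPM, and Abo dipped too.

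Different immune gene lists were highest on different days in these colonocytes. Among the genes that fell, Gml2 stood at 16.0, 0.700 and 0.164 CPM, Gml at 20.8, 1.40 and 0.329, the keratin gene Krt36 at 31.8, 4.03 and 1.23 and Ltf, lactoferrin, at 72.9, 7.00 and 3.37. All 19 interferon-stimulated genes were highest on day 7, beside 32.0% of all genes tested, and Ifit1, Usp18, Gbp2 and Gbp4 fell in order, with Gbp2 at 375, 196 and 115 CPM. The frozen cells differed, with Isg15 at 210, 323 and 485 CPM against 291, 210 and 112 in the fresh cells. Of 13 antimicrobial genes, Nos2, the inducible nitric oxide synthase, and Saa3 fell, with Nos2 at 254, 122 and 46.7 CPM. Inflammatory myeloid genes went otherwise, with 9 of 17 peaking, Il1b, Ccl3 and Osm among them, and 15 highest on day 11, beside 18.3% of all genes tested. The summed neutrophil markers in these cells were 8979, 14099 and 3409 CPM. Of the 11 surface colonocyte genes tested, 1 peaked, Guca2a at 289, 1143 and 436 CPM.

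Car4 colonocytes were shallower, and 3798 genes could be tested. Of these 27 peaked (0.711%), 29 dipped (0.764%), 29 fell (0.764%) and 64 rose (1.69%). Beside the calcium genes above, the cytochrome gene Cyp2c55 rose at 12.4, 39.1 and 248 CPM and Ppfia3 at 0.996, 17.8 and 27.3 CPM. Cyp2c55 went the other way in the frozen libraries, at 459, 413 and 300 CPM. Trim15 fell at 230, 92.5 and 44.1 CPM and Nos2 at 122, 44.1 and 26.2 CPM, with Nckap5 and Eid3. Cyp2d9, Hist1h4h and Rdh9 dipped, with Cyp2d9 at 55.3, 8.54 and 30.3 CPM. Plek2 and Acta1 peaked at 56.9 and 47.7 CPM on day 11, and 76.7% of the day 11 counts of Spp1 came from 1 cell. The stricter cell limits left 19, 15 and 66 of these cells, too few to read the patterns again.

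Among the 10 types described, goblet cells had the largest shares of genes that peaked or dipped. Of 6661 genes tested, 291 peaked (4.37%), 265 dipped (3.98%), 28 fell (0.42%) and 22 rose (0.33%). Mature goblet products dipped, 5 of the 10 goblet genes tested. Zg16, a lectin of the mucus layer, stood at 65584, 8638 and 37931 CPM, Muc2 at 18071, 6120 and 12455 CPM, Tff3 at 27999, 6676 and 18597 CPM, and Fcgbp and Clca1 dipped too. Retnlb, a goblet cell antimicrobial protein, peaked at 138, 275 and 41.3 CPM, and Agr2, which folds mucin, stood at 3871, 10137 and 5359 CPM. Surface colonocyte genes dipped in 9 of 10 tested, with Krt20 at 641, 95.4 and 378 CPM and Lypd8 at 13496, 2252 and 7693 CPM, while Guca2a peaked at 100, 760 and 373 CPM. Colonocytes were themselves a smaller share of cells on day 11, Car4/Ly6g colonocytes at 11.2%, 4.67% and 15.1%. Car4 colonocytes stood at 6.92%, 4.10% and 13.3%. The part of free colonocyte RNA in the dips of surface genes was not tested.

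The level of all genes shifted in these cells. The median over all genes tested was 0.41 higher on day 11 than on day 7 on the log2 scale by CPM, and 0.01 with TMM. Not corrected for that shift, the goblet list had medians of -0.86 by CPM and -1.26 with TMM. The surface list had -3.14 and -3.54, so both lists pointed the same way under either scaling. Other values of the day 11 goblet cells differed as well: their median mitochondrial share was 27.9%, against 13.8% and 16.8%, and their summed neutrophil markers 34863 CPM, against 14486 and 6315. The part of these in the patterns was not tested.

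Genes of protein folding were among those that peaked in goblet cells. Of 12 endoplasmic reticulum stress genes tested, 3 peaked, Sdf2l1 at 28.2, 89.5 and 43.2 CPM, Pdia4 at 44.3, 106 and 51.6 and Creld2 at 27.6, 68.1 and 31.1, and 8 were highest on day 11, where 54.6% of all genes tested were highest too. Fkbp11, a folding enzyme of secretory cells, stood at 16.2, 112 and 39.7 CPM, Stc2 at 2.09, 23.9 and 4.82 and Lgals12 at 1.56, 33.1 and 8.54. Lyz1, lysozyme of Paneth cells and rare in colon, had 0, 602 and 236 counts, at least 142-fold above day 7, with 46.5% of the day 11 counts in 1 cell. Rab3b, Sprr2a2 and Sectm1a had the largest dips, with Rab3b at 46.9, 1.84 and 26.9 CPM. Nos2 fell at 122, 31.3 and 9.09 CPM, with Abhd6, Fut2 and Tifa, and Ceacam10 rose at 9.90, 48.2 and 77.5 CPM, with Kcnf1, Serpina9 and B3galt2. Goblet cells were under 20 on frozen day 6 and could not be compared.

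In neutrophils 4 early granule genes fell and 4 interferon-stimulated genes rose in order. Of 6616 genes tested, 258 rose in order (3.9%), 70 fell (1.06%), 46 peaked (0.695%) and 31 dipped (0.469%). Of 2040 genes at least as high in neutrophils as in other cells, 38 rose (1.86%). The median log2 difference of all genes tested from day 11 to day 18 was 0.32 by CPM and -0.08 with TMM. Summed neutrophil markers in these cells were 298026, 244203 and 182320 CPM, and their part in the rises of other genes was not tested. Of 9 early granule genes tested, which are made while neutrophils mature in bone marrow, 4 fell in order and 8 were highest on day 7, beside 25.4% of all genes tested. Retnlg stood at 21961, 11984 and 6204 CPM, Lcn2 at 7750, 5018 and 1700, the collagenase gene Mmp8 at 1427, 517 and 286, and Cd177 at 435, 81.8 and 54.2. Ngp was already low on day 11, at 3023, 301 and 286 CPM. Other fallers were Ggt1, a glutathione-degrading enzyme, at 82.7, 20.9 and 8.64 CPM, 9.57-fold (7.07 to 13.3), Serpinb2 at 56.2, 27.3 and 0.786 CPM, and Orm1 and Aoah. Ggt1 held its order in the frozen libraries, at 51.2, 30.5 and 4.30 CPM, and Serpinb2 did not, at 46.5, 125 and 33.2 CPM.

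Of 18 interferon-stimulated genes tested in neutrophils, 4 rose in order, 0 fell and 14 were highest on day 18, as were 58.8% of all genes tested. Ifit1, an RNA-binding antiviral protein, stood at 27.9, 87.8 and 138 CPM, Ifit3 at 8.72, 33.6 and 50.7, Ifit2 at 4.41, 9.62 and 16.1, and the chemokine Cxcl10 at 275, 559 and 984. Isg15 stood at 262, 853 and 1124 CPM. The list's median log2 difference was 1.08 from day 7 to day 11 and 0.32 from day 11 to day 18, where all genes had -0.02 and 0.32. With TMM the list had 1.07 and -0.07, and all genes -0.03 and -0.08. The first step thus stood above that of all genes under both scalings, and the second step within 0.01 of it. The frozen neutrophils read 20.9, 44.8 and 49.2 CPM for Ifit1 and 735, 1283 and 1476 CPM for Cxcl10, in the same order.

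The named risers of neutrophils included Slfn5 at 32.3, 117 and 276 CPM, 8.55-fold (7.58 to 9.67), Ifit1bl2 at 3.53, 16.4 and 32.0, Meig1 at 1.18, 4.47 and 19.4, and the sodium channel subunit gene Scnn1a at 13.6, 33.4 and 80.7 CPM. Ifit1bl2 no longer met the rule with TMM, and it is a close relative of Ifit1, so that reads of the 2 genes may not be told apart. Slfn5 in frozen neutrophils stood at 33.7, 62.9 and 124 CPM. Because interferon acts through a shared promoter element, the 250 bases upstream of each gene's start in RefSeq (mouse build GRCm38.p6) were searched on both strands for GAAANNGAA, the core of the interferon-stimulated response element. It was found in 12 of the 16 list genes with a promoter sequence (75%), and in 2211 of all 27025 genes with such a sequence (8.18%). The list was put together from interferon-stimulated genes, so its share describes the list and not the rises in neutrophils. The matches of the risers are printed below, with 10 bases on each side, 5′ to 3′ on the gene's strand and the match in capitals.
Ifit1, chr19:34640795-34640823, plus strand, match on the other strand: cagtctcagtTTCAGTTTCtcactgctga
Ifit3, chr19:34583417-34583445, plus strand, match on the other strand: tactttcctcTTCCCTTTCacaaacactg
Cxcl10, chr5:92349084-92349112, minus strand: tcacgctttgGAAAGTGAAacttacctca
Ifit1bl2, chr19:34640770-34640798, minus strand: actggaaagtGAAACTGAAgcctgcagtt
Slfn5, chr11:82951937-82951965, plus strand: ccttcaaagtGAAAAAGAAaaaaaaaaaa
The matches began 84, 102, 213, 45 and 155 bases before the start of Ifit1, Ifit3, Cxcl10, Ifit1bl2 and Slfn5. The windows of Ifit1 and Ifit1bl2, which lie head to head, overlap. Those letters were not in the 250 bases of Ifit2 or Meig1, and Scnn1a was not searched. A match describes the sequence only and says nothing of what binds there.

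The share of genes that peaked in neutrophils was 0.695% over all genes tested, beside 1.55% over all types. For genes at least as high in the type as in other cells it was 0.784%, beside 0.581%. Ly6i, of the Ly6 family, stood at 16.1, 72.5 and 24.2 CPM, 4.51-fold above day 7 (3.84 to 5.34) and 3.00-fold above day 18 (2.497 to 3.64), and in the frozen libraries at 16.3, 147 and 112. Spp1, osteopontin, peaked at 242, 670 and 233 CPM. Of 16 hypoxia and glycolysis genes, Tpi1, Bnip3 and Egln3 peaked and 13 were highest on day 11, beside 15.9% of all genes tested, with Bnip3 at 65.0, 164 and 54.4 CPM. The interleukin gene Il1f6 and Echdc3 peaked at 6.97 and 2.95 CPM, and 73.7% of the day 11 counts of Hamp came from 1 cell. Late activation genes showed no shared pattern, with 1 of 16 lower on day 11 by the rule (Siglecf at 24.2, 6.28 and 16.3 CPM) and 1 falling (Tnf at 494, 318 and 178 CPM). Scimp, Ffar2 and Ltc4s, which makes leukotriene C4, dipped, with Ltc4s at 34.9, 1.52 and 5.30 CPM.

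In macrophages 4 of 18 inflammatory myeloid genes peaked, and the list's summed level was 19654, 26522 and 8064 CPM. Of 6131 genes tested, 53 peaked (0.864%), 25 dipped (0.408%), 62 fell (1.01%) and 19 rose (0.31%). Arg1, the arginase of wound macrophages, stood at 97.1, 284 and 24.8 CPM, 2.92-fold above day 7 (2.66 to 3.22) and 11.4-fold above day 18 (8.32 to 16.1). Spp1 stood at 87.7, 245 and 59.8 CPM. Frozen macrophages gave 53.0, 131 and 57.1 CPM for Arg1 and 55.9, 174 and 75.0 for Spp1, again highest in the middle. Arg1 was found in 27, 64 and 4 of 567, 489 and 155 macrophages. Of 18 inflammatory myeloid genes, 4 peaked, Arg1, Spp1, Inhba and S100a9, and 15 were highest on day 11, beside 41.2% of all genes tested. Inhba, the activin A subunit, stood at 154, 353 and 24.2 CPM. The list's median log2 difference was 0.27 from day 7 to 11 and -2.04 from day 11 to 18, beside 0.04 and -0.14 over all genes. Summed neutrophil markers in macrophages were 5601, 11442 and 2565 CPM, and S100a9 is among them.

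Saa3 and Chil3 were among the 62 genes that fell in macrophages, and MHC class II genes were highest on day 18. Saa3 stood at 2968, 1005 and 35.7 CPM, 83.3-fold higher on day 7 than on day 18 (64.1 to 110), and Chil3, a marker of newly arrived monocytes, at 2937, 685 and 272 CPM, 10.8-fold (9.79 to 11.9). In the frozen libraries Chil3 read 873, 776 and 238 CPM and Saa3 1619, 4162 and 937. Ccl8 fell with 50.9% of its day 7 counts in 1 cell, and Car13 fell too. All 7 MHC class II genes were highest on day 18, beside 26.3% of all genes tested, and none met a pattern, with H2-Aa at 3681, 3568 and 7604 CPM and the transactivator gene Ciita at 40.9, 52.8 and 122. Summed dendritic cell markers in the type were 713, 356 and 608 CPM, and the part of dendritic cells in these levels was not tested. Of 13 resident macrophage genes tested, 0 met a pattern, with Apoe at 2553, 2638 and 2305 CPM.

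Risers of macrophages were led by the heat shock gene Hspa1a at 63.2, 233 and 539 CPM, with Hspa1b at 32.5, 111 and 210. These were the 2 of 16 immediate early and heat shock genes that rose. Tissue digestion can raise such genes, and its part was not tested. Mgl2, a lectin of alternatively activated macrophages, stood at 12.4, 25.3 and 60.5 CPM, Hic1 at 6.21, 19.7 and 34.4 and Plet1 at 35.3, 64.3 and 121 CPM. Day 18 held 155 macrophages, and the part of dendritic cells within the type was not tested. Nudt17, Apol7c and Slc27a3 dipped, with Apol7c at 44.7, 7.56 and 139 CPM and 40.6% of its day 7 counts in 1 cell. Tlr5 peaked at 14.3 CPM, and 74.1% of the day 11 counts of Pla2g2d came from 1 cell.

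In T cells the cytokine gene Il22 fell and was found in few cells. Of 5637 genes tested, 122 peaked (2.16%), 11 dipped (0.195%), 32 fell (0.568%) and 35 rose (0.621%). Il22, the cytokine that drives epithelial repair, stood at 497, 252 and 31.4 CPM, 15.8-fold higher on day 7 than on day 18 (12.4 to 20.5), from 14, 19 and 15 cells, and in the frozen libraries at 3136, 271 and 219. Gzma, a granzyme, fell at 1610, 883 and 274 CPM. Together Il22 and Gzma were the fallers among 19 effector and regulatory genes tested. Hs3st1, Jag1 and the transcription factor gene Eomes fell too, with Hs3st1 at 98.9, 8.60 and 5.08 CPM. Ifng, interferon gamma, dipped at 413, 123 and 386 CPM, with 61.3% of the day 18 counts in 1 cell. It no longer dipped with the top cell of each library left out, at 301, 100 and 150 CPM. Penk dipped to 0 counts from 57 on day 7, 91.2% of them in 1 cell, and Klrb1a stood at 30.02, 11.0 and 33.3 CPM.

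Areg, amphiregulin, which regulatory T cells use in tissue repair, rose at 274, 481 and 915 CPM, 3.34-fold (3.05 to 3.66). In the frozen libraries it read 420, 770 and 669. Bcl2a1a, Rgs16 and Igflr1 rose as well, with Igflr1 at 23.0, 50.6 and 81.3 CPM, and Bcl2a1a has near-identical copies among which reads may be split. The peaks at or above the level of other cells were Ifi27l2a at 340, 848 and 331 CPM, the fatty acid binding protein gene Fabp5 at 94.0, 291 and 63.3 and the peptide transporter gene Slc15a2 at 4.42, 24.1 and 6.47. All 3 of Ifi27l2a, Fabp5 and Slc15a2 were tested in the frozen cells, where Ifi27l2a read 431, 580 and 373 CPM, Fabp5 11.7, 113 and 60.1 and Slc15a2 58.3, 21.0 and 33.2.

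**Figure D4:**
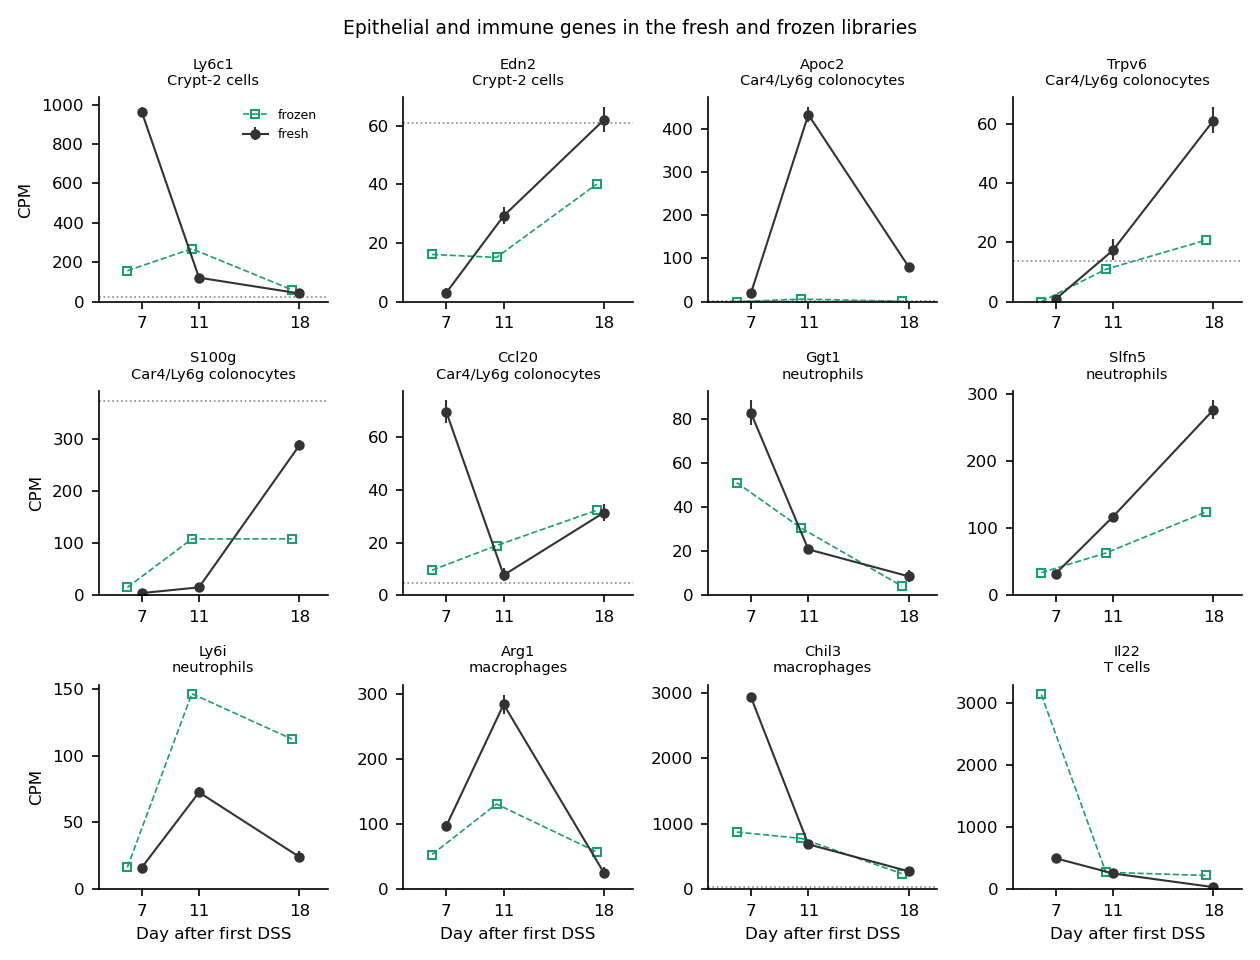
CPM of 12 genes in Crypt-2 cells, Car4/Ly6g colonocytes, neutrophils, macrophages and T cells by day after first DSS, drawn with black points for the fresh libraries (95% Poisson intervals), green squares for the frozen libraries and a grey dotted line for the uninjured library where the type was found there. Trpv6 and S100g go up to 61.0 and 288 CPM on day 18, and Apoc2 peaks at 432 CPM in the fresh set and at 5.82 CPM in the frozen set.

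The frozen libraries, on which no pattern was chosen, were compared gene by gene. Day 6 stood for day 7, days 9 and 12 summed for day 11, and days 16 and 19 summed for day 18, in the 10 types with at least 20 cells in each set, and genes with at least 10 frozen counts were used. Of 758 gene and type pairs that peaked in the fresh libraries, 483 (63.7%) were highest on days 9 and 12, against 27.4% of all pairs tested. The same way was taken by 137 of 284 dips (48.2%, against 32.4%), 218 of 537 falls (40.6%, against 20.5%) and 307 of 824 rises (37.3%, against 19.7%). For pairs at least as high in the type as in other cells the shares were 66.7%, 57.3%, 49.6% and 47.1%, against 29.1%, 29.6%, 21.0% and 20.3%. Days and storage differ between the sets, and a frozen order asked for no minimum fold. A gene could count in several types, so the pairs are not independent. Neutrophils numbered 531 on frozen day 6, 3157 on days 9 and 12 and 1062 on days 16 and 19. The part of free neutrophil RNA in the shared peaks was not tested.

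By type, peaks of Adamdec1/Bmp4 fibroblasts were kept most often among the 4 types with over 90 of them, at 77.6% against 30.9%, and those of T cells least often, at 57.4% against 30.6%. Crypt-2 cells stood at 69.6% against 33.7%, Car4/Ly6g colonocytes, with 74 peaks, at 64.9% against 26.0% and Pi16/Pcolce2 fibroblasts at 63.9% against 28.2%. Differences between types were not tested. The rises of neutrophils, the most of any type over all genes tested, were kept for 79 of 247 (32.0%, against 23.8%). Among genes at least as high in neutrophils as in other cells, 15 of 38 were kept (39.5%, against 18.8%).

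**Figure D5:**
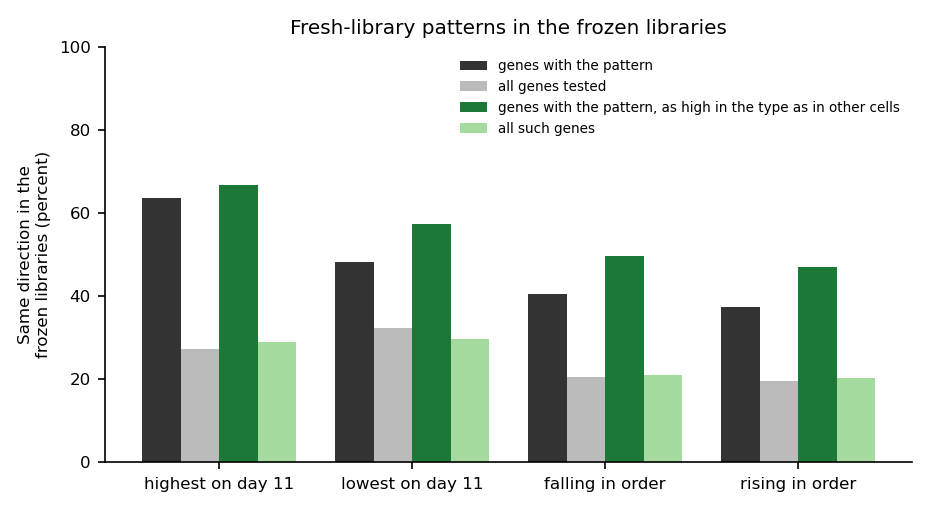
Percentage of gene and type pairs that go the same way in the frozen libraries as in the fresh ones, for pairs with each pattern (black bars) and for all pairs tested (grey bars). Dark and pale green bars give the same for pairs at least as high in the type as in other cells, and for peaks the black bar is at 63.7% and the grey bar at 27.4%.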

How the data were processed

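Droplet 3′-end libraries were made from fresh colon mucosa on 3 days, 1 library a day. UMI counts per gene and cell were deposited by the authors with a cell table giving batch, day and type. Per the submitters' processing notes, Cell Ranger 3.0.0 and mouse build mm10 were used. How the authors treated doublets is not given in the sources used here. No caller was run. Of 30406 rows in the table, 597 placeholders with no gene name, holding 0.529% of batch C counts, were left out, which left 29809 genes. The table holds 14 libraries with 68224 cells. Of these, 3 libraries with 12621 cells could not be matched to a sample and are not used here, and 0 columns of values were left unused.

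Counts were summed per annotated type and library (Python 3.11.15, numpy 2.4.6, pandas 2.3.3) and given as CPM of that sum. Exact Poisson intervals for levels, conditional binomial intervals for ratios and Clopper-Pearson intervals for shares (scipy 1.17.1) cover counting error only, at 95%. With 1 library a day no test was possible and no p-value is given. The members and the 26 gene lists and 17 marker lists were chosen with earlier results of these data known.

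Named genes were, in the 10 types with the most counts in their smallest library, up to 4 peaking, falling and rising and 3 dipping genes by size of change, among genes at least as high in the type as in other cells. Further names are up to 10 genes per pattern shared by most types and 2 to 6 members of each list described. Predicted, mitochondrial and variable-segment genes were not named. Any other gene was chosen after its values were seen. The pattern rule was tested on simulated data. Alternatives were TMM scaling (edgeR 4.0.16, R 4.3.3), no mitochondrial genes, other count minimums and folds, cells thinned to 1000 counts and stricter cells. Leaving out the top cell, types with at least 50 cells, and frozen shares for genes at least as high in the type as in other cells were added after the data were seen.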

Additional observations from a re-analysis of the deposited data

Results flagged for a closer look

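Plasma cells were under the minimum of 20 cells in the libraries of days 7 and 11 and so were not among the 19 types described. They numbered 5, 8 and 244 cells on days 7, 11 and 18, which is 0.0661%, 0.0894% and 2.79% of the cells (2.46% to 3.16% on day 18). They stand here as a signal in cells that no comparison above used. Igkc rose in order in 14 of 19 types in the same libraries, and the summed plasma cell markers in T cells were 79.9, 81.5 and 590 CPM. The part of free plasma cell RNA in that rise was not tested.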

How the results depend on the processing

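No paired analysis was possible because each day had 1 library, and for the same reason no library could be left out. Counts of pairs that peaked, dipped, fell and rose were 1485, 772, 976 and 1231. With a count minimum of 20 they were 2575, 1838, 1602 and 2339, and with 200 they were 607, 247, 441 and 407. A fold of 1.5 with smaller steps gave 3779, 2820, 2576 and 4412, and a fold of 3 with steps of 2 gave 576, 238, 311 and 273. Cells thinned to 1000 counts gave 200, 285, 267 and 251, and genes at least as high in the type as elsewhere 314, 432, 352 and 528. TMM scaling gave 805 rises. Fewer genes or a different fold make part of these changes by construction, and otherwise the cause was not tested. The other counts under TMM, without mitochondrial genes, in stricter cells (15 types), without the top cell and in the 13 types of at least 50 cells stayed within 1.5 times. The top cell's removal kept 81.5%, 79.3%, 76.6% and 84.2% of the pairs. Stricter cells left 3 types largest on day 11, against 5. Frozen shares for genes at least as high in the type as in other cells were 57.3% for dips, 49.6% for falls and 47.1% for rises. Of the 149 named genes, 142 kept their pattern with TMM, 138 of 144 without the top cell, 116 of 119 in stricter cells and 67 of 96 in thinned cells. Sptssb, Hamp, Msln, Ifng, Pla2g2d and Car13 lost it without the top cell. Ifit1bl2, Abhd6, Fut2, Tifa, Serpina9, Gsta3 and Ppfia3 lost it with TMM. In thinned cells Plet1 in macrophages turned, at -0.31 on the log2 scale. Depth limits Crypt-1 cells most, with 22 cells on day 7.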

Other observations

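The values below are from types outside the 10 described above, and these genes were chosen after their values were seen. In Selp/Sele endothelial cells, the venules that leukocytes cross, Glycam1, a ligand of L-selectin, stood at 9.33, 752 and 3444 CPM on days 7, 11 and 18, in 4, 16 and 13 cells. Ubd stood at 35.9, 609 and 1669 CPM in the same cells, and their summed proliferation genes at 2271, 917 and 1038 CPM. In lymphatic cells the granulocyte growth factor gene Csf3 stood at 213, 51.5 and 0 CPM. Myofibroblasts with no subtype had the Hedgehog-binding gene Hhip at 277, 828 and 1563 CPM and the muscle filament gene Des at 115, 227 and 1425 CPM. B cells held Igha at 9.59, 16.7 and 447 CPM. Igha rose in order in 5 of 19 types, endothelial cells and myofibroblasts among them. Plasma cells numbered 5, 8 and 244 in these libraries, and the part of free plasma cell RNA was not tested.

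Some clock genes differed in the same way in several types, and others had their extremes on other days. Dbp was highest on day 11 in 5 of 5 types tested and Tef in 5 of 6, while Arntl was lowest on day 11 in 6 of 8 types and Npas2 in 6 of 6. Over all cells Npas2 stood at 10.1, 4.75 and 13.1 CPM. Nr1d1, in contrast, was highest on day 18 in 8 of 10 types and Per3 in 4 of 5. Per1 was highest on day 7 in 5 of 9 types, and Cry1 on day 7 in 5 and on day 18 in 4 of 9.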
